A study of Mus musculus with 2 samples.

Results

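Interferon-stimulated genes are the transcripts that cells make when type I, II or III interferon reaches its receptor. The set described here holds 34 such genes outside the Ifit and Oas families, picked by symbol, and 33 of them have a row among the 32285 genes counted (Mx1 was not analysed here). The cells came from mouse bone marrow and were sorted as natural killer progenitors, meaning cells without lineage antigens, Sca-1, c-kit, NK1.1 or Ncr1 that carry CD122. There were 2 droplet libraries of 3' transcript ends, 1 from wild-type C57BL/6 mice (WT) and 1 from Irf4-/- mice, which lack a working copy of the interferon regulatory factor gene Irf4. Neither group carried another stated allele or treatment, and the age, the number of animals and the deleted part of Irf4 are not given in the sources used here.

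Type I interferon signals through the receptor chains Ifnar1 and Ifnar2 and the kinases Jak1 and Tyk2 to a complex that contains Stat2 and Irf9. That complex binds the interferon-stimulated response element in promoters, while interferon gamma acts mainly through gamma-activated sequences. Many of the induced proteins sense foreign nucleic acid, attach or remove the ubiquitin-like protein Isg15, block steps of viral replication, or damp the signal itself. T cells express many of these genes at a low level without infection, and a small share of cells can show a strong response.

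Both groups consist of a single library, so no difference has a replicate check and no p-value is given. Values in pairs name the library labelled Irf4-/- first and the library labelled WT second. Levels are counts per 1000000 of all UMIs (unique transcript molecules) of a population, written CPM. A ratio is the log2 of the first level over the second, and the range after it is the exact 95% interval, which covers counting error only. A gene was counted with at least 50 UMIs over both libraries and called different past 1.5-fold. Irf4 itself had 204 UMIs in T cells labelled Irf4-/- against 98 in those labelled WT (3.07 and 1.22 CPM), and 221 against 97 in B-like cells. Transcript ends need not cover a deleted exon, so this count does not test the genotype, and every direction below is one between labelled libraries.

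Filtering kept 7955 of 8147 barcodes in the library labelled Irf4-/- and 12367 of 12732 in that labelled WT, at medians of 9540 and 7125 UMIs per cell. The libraries shared 27 barcode sequences. Clusters were built without the member genes or other interferon-stimulated genes. Despite the sort for progenitors, 5925 and 9943 cells lay in clusters expressing CD3 genes, here T cells, and 816 and 1280 cells in a gamma-delta T-like cluster led by Trdc. Another 745 and 785 cells were B-like, and 293 and 110 were progenitor B-like. The libraries filled the T cell clusters unequally: cluster 4, led by the lectin receptor gene Klre1, held 1767 and 520 cells, cluster 13, led by Cd8b1, held 606 and 3221, and cluster 20, led by Gzmk, held 7 and 358. A cluster with both CD3 and Cd79a transcripts (97 and 159 cells) was left out of all populations.

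The members are spread over the genome with a few neighbours. Ifi203, Ifi204, Ifi206, Ifi208, Ifi209 and Ifi213, of the Ifi200 family of DNA-binding proteins, all lie between positions 173468485 and 173942672 of chromosome 1 (GRCm38, the same assembly as mm10). Rsad2 and Cmpk2 are neighbours on chromosome 12, Gbp2 and Gbp7 lie on chromosome 3, and Parp9 and Parp14 on chromosome 16. The Ifi200, Gbp and Phf11 genes have close copies, so reads may have been split between copies or dropped.

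Promoter windows of 300 bases (250 before and 50 after the start, RefSeq, GRCm38.p6) were found for 25 of the 33 members. The core of the interferon-stimulated response element, searched on both strands as GAAA, any 2 bases, GAAA, was present for 16 of the 25 (64%) against 794 of 20267 genes in all (3.92%). The gamma-activated sequence, TTC, any 3 bases, GAA, was present for 4 of the 25 (16%) against 9.35% of all genes. Members with no entry were Usp18, Dhx58, Zbp1, Ifi204, Rtp4, Parp9, Parp14 and Ifi27l2a. Parts of 3 windows are printed for Isg15 and the 2 members most concentrated in Isg15-rich T cells, the rare Ifi204 aside. The response element core is in capitals (as its reverse complement for Rsad2).
Isg15, chr4:156200841-156200930, minus strand: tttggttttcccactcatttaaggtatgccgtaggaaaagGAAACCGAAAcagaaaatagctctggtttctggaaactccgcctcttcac
Cxcl10, chr5:92349053-92349139, minus strand: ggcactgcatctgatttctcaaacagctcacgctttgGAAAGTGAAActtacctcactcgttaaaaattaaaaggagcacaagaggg
Rsad2, chr12:26456523-26456612, minus strand: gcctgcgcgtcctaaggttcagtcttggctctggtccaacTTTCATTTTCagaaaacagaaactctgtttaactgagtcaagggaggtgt
In the Isg15 window the match overlaps further matches of the same core on both sides. The next lines show Gbp7 and Bst2, whose intervals in B-like cells lay farthest above 0 among the members with a match, with the same capitals (reverse complement for Gbp7).
Gbp7, chr3:142530243-142530332, plus strand: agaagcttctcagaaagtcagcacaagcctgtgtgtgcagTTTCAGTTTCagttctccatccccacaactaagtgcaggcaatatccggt
Bst2, chr8:71537547-71537636, minus strand: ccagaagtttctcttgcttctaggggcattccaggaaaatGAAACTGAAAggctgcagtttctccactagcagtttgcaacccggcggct
The last lines show 3 Ifi200 genes, whose windows are nearly the same letters.
Ifi206, chr1:173491319-173491398, minus strand: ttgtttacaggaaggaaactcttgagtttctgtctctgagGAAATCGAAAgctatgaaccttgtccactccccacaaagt
Ifi208, chr1:173673567-173673656, plus strand: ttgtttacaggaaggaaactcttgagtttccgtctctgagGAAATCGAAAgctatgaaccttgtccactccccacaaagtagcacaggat
Ifi213, chr1:173599296-173599385, minus strand: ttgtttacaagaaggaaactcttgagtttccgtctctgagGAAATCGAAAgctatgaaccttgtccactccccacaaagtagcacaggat
Aligned on the motif, Ifi206 and Ifi208 shared 79 of 80 bases, Ifi208 and Ifi213 shared 89 of 90, and Ifi206 and Ifi213 shared 78 of 80. These matches describe letters in a window and show no binding.

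In T cells, most members were slightly higher in the library labelled Irf4-/-, and 3 were past 1.5-fold: Ifi27l2a, Usp18 and Ifi44. None of the 33 counted members was lower past 1.5-fold. Of all 12107 genes counted in T cells, 5.58% were higher and 2.99% lower past that limit, and 9.09% of the counted members were higher, which is near the background share. The median ratio was 0.15 over members and 0.01 over all genes, 25 members were above 0, and 26 intervals excluded 0. Markers of other cells also moved in the T cell population: natural killer and ILC1 markers summed to 875 and 591 CPM (12 of 12 detected in both), gamma-delta markers to 184 and 102 CPM (11 and 10 of 11) and progenitor B markers to 284 and 509 CPM (8 of 10 in both, with Vpreb2 at 0). Their part in the ratios was not tested.

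Ifi27l2a, a small interferon-induced protein of intracellular membranes (chromosome 12, 103442167 to 103443680), had 25624 and 17319 UMIs, or 386 and 216 CPM. Its ratio was 0.84 (0.81 to 0.87), a 1.79-fold difference. At least 1 UMI was seen in 71.7% and 51.5% of cells at their own depth, which differed between the libraries. The level was higher in the library labelled Irf4-/- in 11 of 11 T cell clusters that held 50 or more cells of both libraries, from 0.29 to 1.51, and all 11 intervals were above 0. The dividing-cell cluster 14, led by Cenpf, held the highest levels among these clusters in both libraries, at 1309 and 954 CPM.

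Usp18 removes Isg15 from its targets and also binds the interferon receptor, where it damps signalling (chromosome 6, 121245906 to 121270917). It had 1356 and 902 UMIs, or 20.4 and 11.2 CPM, a ratio of 0.86 (0.74 to 0.98) and a 1.82-fold difference. The direction was the same in 11 of 11 clusters, from 0.22 to 1.42, with 7 intervals above 0. The Klre1-led cluster 4 had 28.5 and 24.4 CPM with an interval that included 0, and in the Cd8b1-led cluster 13 they were 16.9 and 9.1 CPM with a ratio of 0.89 (0.55 to 1.22). With the clusters weighted equally the ratio of Usp18 in T cells was 0.62 instead of 0.86.

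Ifi44 was rare. It had 65 and 24 UMIs in 32 and 16 T cells (0.98 and 0.30 CPM), and its ratio of 1.71 (1.02 to 2.45) rested on few cells, since the 5 richest cells held 43.1% and 54.2% of its UMIs. With cells gated on transcripts, or thinned to 2000 UMIs, the ratio of Ifi44 was 1.03, and with clusters from all variable genes it was 1.10.

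**Figure D1:**
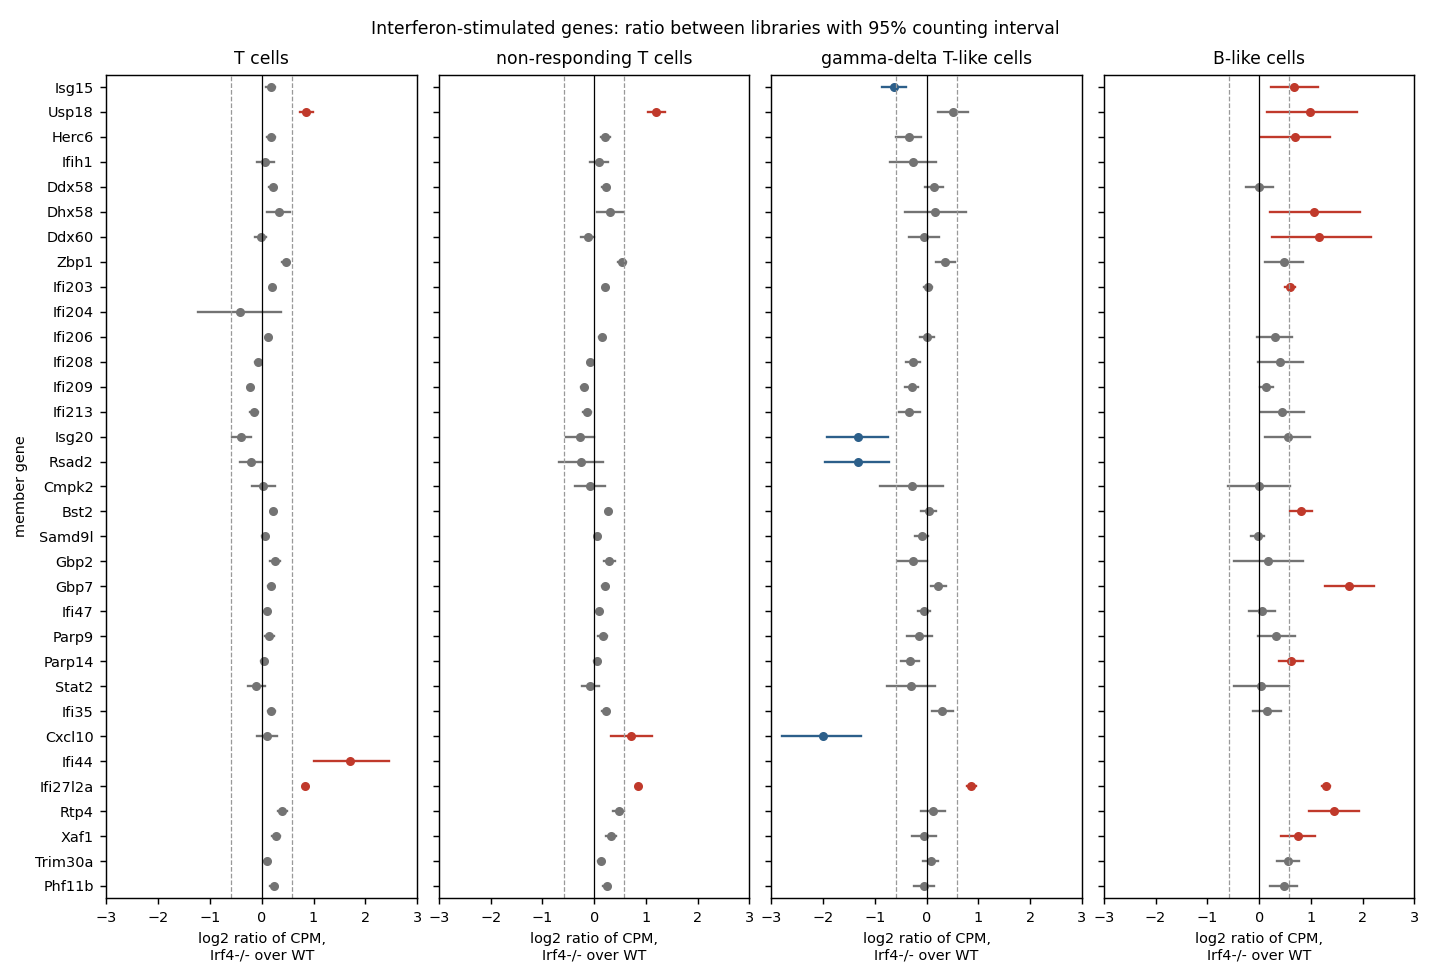
Each point is a member's log2 ratio of CPM, the library labelled Irf4-/- over that labelled WT, in 4 populations, and each bar is its exact 95% counting interval. Red points are higher and blue points lower past 1.5-fold (dashed lines), and genes under 50 UMIs are not drawn, nor is Isg15 in non-responding cells, which were selected on it. Ifi27l2a was higher in all 4 panels, B-like cells had 12 red points, and gamma-delta T-like cells held the 4 blue ones.

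The remaining members of the Isg15 system were closer to even in T cells. Isg15 itself, which is secreted or attached to other proteins, had 34.2 and 30.4 CPM, a ratio of 0.17 (0.09 to 0.25). Herc6, the mouse ligase for Isg15, had 35.2 and 31.1 CPM, a ratio of 0.18 (0.10 to 0.26). Over single clusters Isg15 was higher in 5 of 11, with ratios from -0.74 to 0.60. With the clusters weighted equally its ratio was -0.16.

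Among nucleic acid sensors, Zbp1, which binds Z-form nucleic acid and can start necroptosis, stood at 54.5 and 39.5 CPM with a ratio of 0.47 (0.40 to 0.53). It was higher in 8 of 11 clusters. The RNA helicase Dhx58 had a ratio of 0.32 (0.11 to 0.54) and Ddx58, which encodes the RIG-I sensor, had 0.21 (0.14 to 0.28). The ratio of Ifih1, which encodes the long-RNA sensor MDA5, was 0.07 (-0.09 to 0.23), and that of Ddx60 was -0.02 (-0.14 to 0.09). None of these 5 passed 1.5-fold.

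The Ifi200 family was split. Ifi203 had 356 and 310 CPM, a ratio of 0.20 (0.17 to 0.22), whereas Ifi209 had 113 and 132 CPM, a ratio of -0.22 (-0.26 to -0.17). Ifi209 was lower in the library labelled Irf4-/- in 10 of 11 clusters, with 9 intervals below 0, and Ifi208 was higher in 0 of 11. Ifi213 had a ratio of -0.15 (-0.22 to -0.08). These are differences well under 1.5-fold, among genes whose reads may be shared. Ifi204 had 23 and 37 UMIs in all T cells, and its interval, -1.23 to 0.38, included 0.

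Antiviral effectors differed little. Bst2, which tethers budding virus to the cell surface, had a ratio of 0.22 (0.17 to 0.27). Isg20, an exonuclease that degrades RNA, had 397 and 630 UMIs, a ratio of -0.39 (-0.58 to -0.21), and passed 1.5-fold only where cells were thinned to 2000 UMIs, at -0.81. Rsad2, or viperin, which makes a chain-terminating nucleotide, had a ratio of -0.21 (-0.41 to -0.00). Its neighbour Cmpk2 had 0.03 (-0.19 to 0.26). The interferon-induced GTPases Gbp2, Gbp7 and Ifi47 lay between 0.09 and 0.25, and the ADP-ribosylation genes Parp9 and Parp14 at 0.15 and 0.05. Of the other members, Rtp4, which carries receptors to the cell surface and restricts some viruses, was at 33.6 and 25.6 CPM (0.39, interval 0.31 to 0.48). Xaf1, an interferon-induced partner of apoptosis regulators, was at 36.9 and 30.5 CPM (0.27, interval 0.19 to 0.35).

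Cxcl10, a chemokine that draws Cxcr3-bearing cells, was even over all T cells at 423 and 476 UMIs, a ratio of 0.10 (-0.09 to 0.29). It came from 107 and 111 cells, and the 5 richest held 31.0% and 37.4% of its UMIs. The clusters differed: in cluster 4 it stood at 15.7 and 69.1 CPM, a ratio of -2.13 (-2.38 to -1.89), and in the histone-gene cluster 10 at 4.71 and 1.28 CPM, a ratio of 1.88 (0.34 to 3.86). With the clusters weighted equally, Cxcl10 in T cells turned to -1.50.

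**Figure D2:**
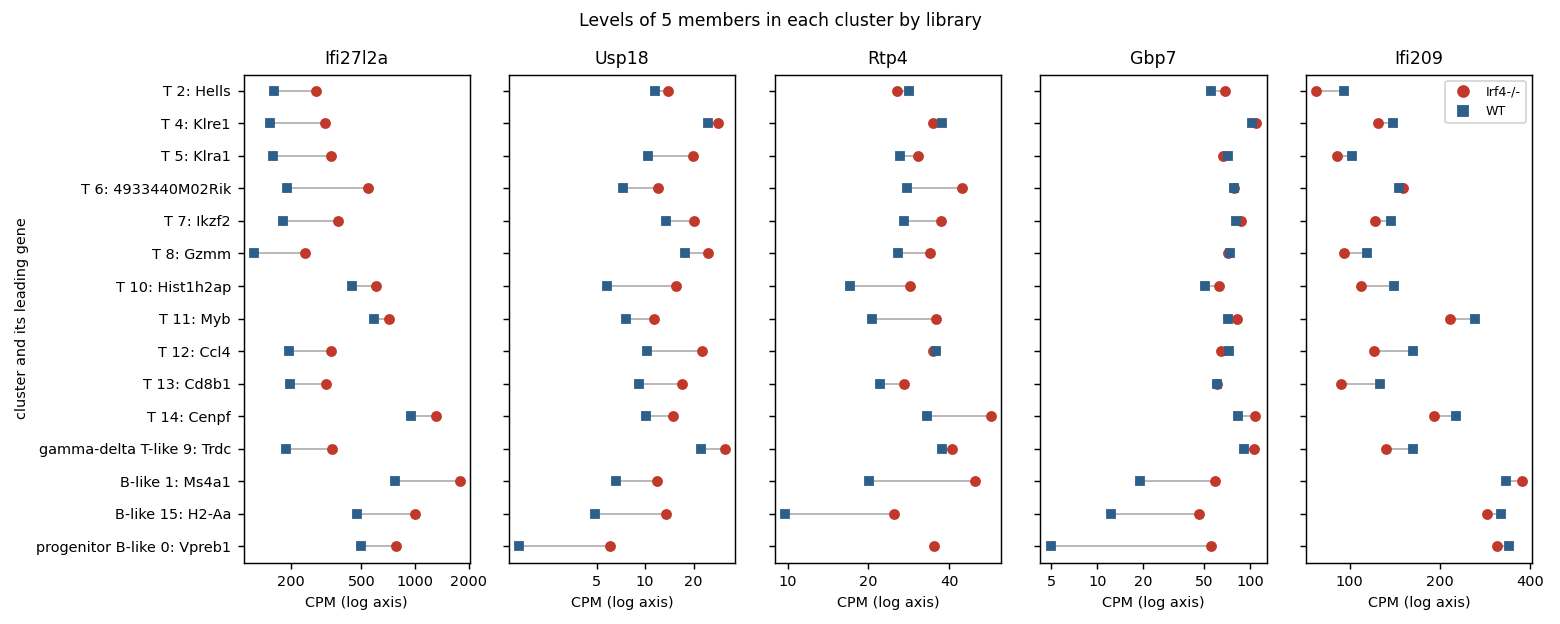
Levels of 5 members (CPM, log axes) are shown in each cluster with 50 or more cells of both libraries, circles for the library labelled Irf4-/- and squares for that labelled WT. The circles of Ifi27l2a and Usp18 lie to the right of the squares in all 11 T cell clusters, Rtp4 and Gbp7 are farthest apart in the B-like clusters, and the absent WT square of Rtp4 in progenitor B-like cells stands for 0 UMIs.

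Cells with a strong response were marked by more than 1 Isg15 UMI and are called responding below. At their own depth, 329 of 5925 T cells (5.55%, exact interval 4.98 to 6.17%) and 384 of 9943 (3.86%, 3.49 to 4.26%) were responding. T cells of the library labelled Irf4-/- were deeper, with a median of 10184 against 7427 UMIs. After every cell was thinned to 4000 UMIs the shares were 2.59% (2.20 to 3.03%) and 2.20% (1.91 to 2.51%), and the intervals overlapped. Thinned to 2000 UMIs they were 1.06% and 1.04%. With any Isg15 UMI as the limit, the shares were 8.18% (7.49 to 8.91%) and 6.43% (5.95 to 6.95%) at 4000 UMIs and 5.31% (4.75 to 5.91%) and 3.96% (3.59 to 4.37%) at 2000, and these intervals did not overlap. At matched depth the libraries thus differed beyond counting error in cells with any Isg15 UMI, and not detectably in cells with more than 1. By cluster, the share at own depth ran from 1.11% and 1.35% in the Myb-led cluster 11 to 8.09% and 10.9% in the DNA replication cluster 2, led by Hells.

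**Figure D3:**
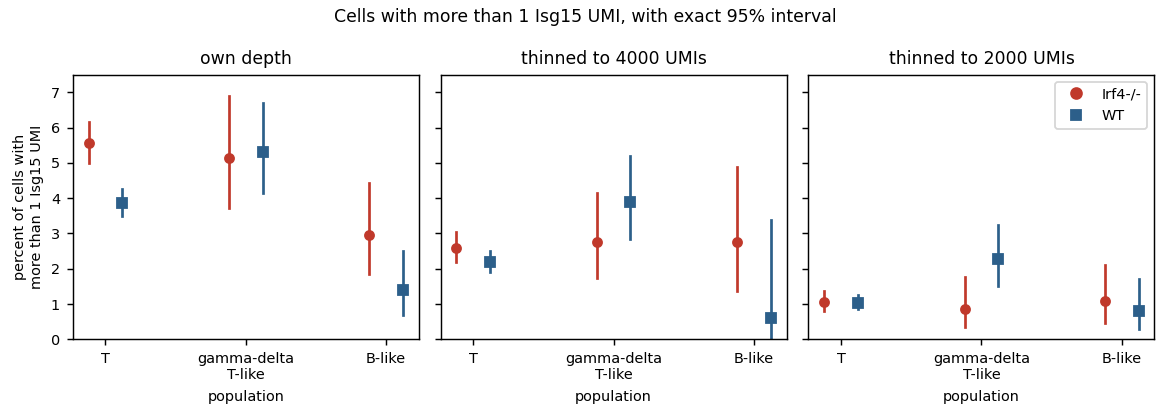
The percent of cells with more than 1 Isg15 UMI is plotted for 3 populations at own depth and after thinning, with exact 95% intervals. The T cell values of 5.55% and 3.86% at own depth meet at 1.06% and 1.04% after thinning to 2000 UMIs. Cells below the thinning depth are left out, so at 4000 UMIs the B-like points rest on 399 and 163 cells.

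In T cells without such a response (5596 and 9559 cells with 1 Isg15 UMI or fewer), Usp18 and Ifi27l2a were again higher. Usp18 had 969 and 518 UMIs, or 15.6 and 6.77 CPM, a ratio of 1.20 (1.05 to 1.36). Ifi27l2a had 361 and 200 CPM, a ratio of 0.85 (0.82 to 0.88). Cxcl10 also passed, with 130 and 97 UMIs (0.72, interval 0.33 to 1.12), but the 5 richest cells held 43.8% and 47.4% of them. Thus 3 of the 30 members counted without Isg15 were higher and 0 lower, beside 5.54% higher and 2.97% lower of 12041 genes. The median over these members was 0.18. Zbp1 (0.53) and Rtp4 (0.47) followed below the limit, and Ifi44 had only 24 and 11 UMIs.

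Other ways to set aside responding cells, and other scalings, left both leading genes in place. Usp18 had ratios from 1.05 to 1.36 and Ifi27l2a from 0.82 to 0.86 over 5 alternatives. These were TMM and median-of-ratios scaling of the same cells, Isg15 at 0 UMIs, a split after thinning, and a split on 12 other interferon-stimulated genes (1925 and 5743 cells). Usp18 itself is among those 12, and its highest ratio, 1.36, came from that split. Under that last split, Cxcl10 reversed to -0.90. The 2 non-responding groups still differ in depth, at medians of 10154 and 7397 UMIs.

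Responding T cells, at equal depth of 4000 UMIs (152 and 209 cells), had similar levels of most members in both libraries. Isg15 stood at 849 and 844 CPM, a ratio of 0.01 (-0.16 to 0.17), and Usp18 at 168 and 153 CPM, a ratio of 0.13 (-0.26 to 0.52). Usp18 in the other thinned cells was at 17.9 and 8.22 CPM. Ifi27l2a remained higher in the responding cells, at 929 and 587 CPM with a ratio of 0.66 (0.48 to 0.84). Ifih1 was at 37.8 and 71.8 CPM from 23 and 60 UMIs (-0.92, interval -1.69 to -0.21), and Ifi208 at 293 and 401 CPM (-0.45, interval -0.72 to -0.19). The cells were chosen on Isg15, and whether the Usp18 ratios of the responding and other cells differ was not tested.

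Members differed widely in how far they were confined to responding T cells. Cxcl10 was the most concentrated, with 62.8% and 75.2% of its UMIs in the 2.59% and 2.20% of cells that were responding. The rare Ifi204, with 1 and 12 UMIs in responding cells and 5 and 4 in the others, is set aside here. Rsad2 followed with 52.1% and 53.3%, and Isg20 with 39.8% and 41.4%. Usp18 had 20% and 29.5%. At the other end, Ifi47, a GTPase of the immunity-related family, had 5.91% and 5.71%, and Ifi203, Samd9l, Ifi27l2a and Ifi35 had between 5.99% and 6.35%. The median fold of the members other than Isg15 between responding and other cells was 4.07 and 4.19. Ifi27l2a, whose interval was above 0 in all 11 T cell clusters with 50 or more cells of both libraries, was among the least tied to responding cells, with log2 folds of 1.34 and 1.57 between responding and other cells.

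**Figure D4:**
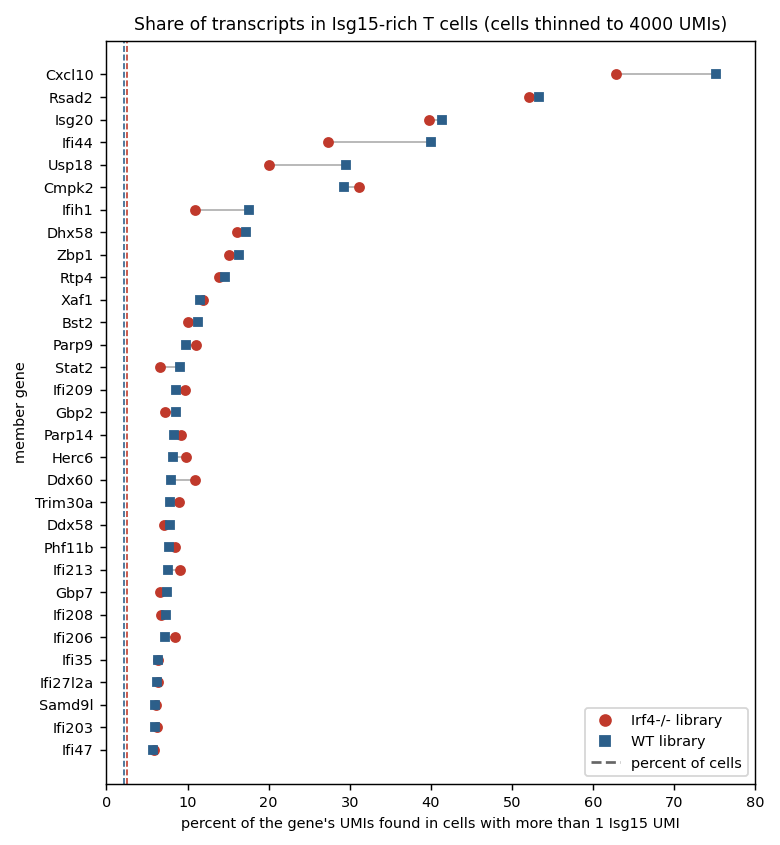
For each member other than Isg15 and the rare Ifi204, the percent of its UMIs found in T cells with more than 1 Isg15 UMI is shown per library after thinning to 4000 UMIs, with dashed lines at the percent of cells. Cxcl10 reaches 62.8% and 75.2%, most members stay under 20%, and Usp18 shows one of the wider gaps, 20% against 29.5%.

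Measured co-expression per cell was weak at the depths used. Over 528 pairs of members in T cells thinned to 4000 UMIs (5866 and 9513 cells), the median Pearson r of log values was 0.061 and 0.067. The strongest pair was Isg15 with Rsad2, at 0.31 and 0.39, and only 1 and 4 pairs reached 0.3. Isg15 was the best partner of 26 and 31 of the other 32 members. Its r ran from 0.044 to 0.31 in the library labelled Irf4-/- and from 0.058 to 0.39 in that labelled WT. Isg15 with Usp18 had 0.23 and 0.30. All cells of a library share its depth and preparation, so these values are descriptions. The medians rose with depth, from 0.038 and 0.043 at 2000 UMIs to 0.11 and 0.10 without thinning. A low r here therefore does not show that members are unrelated.

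**Figure D5:**
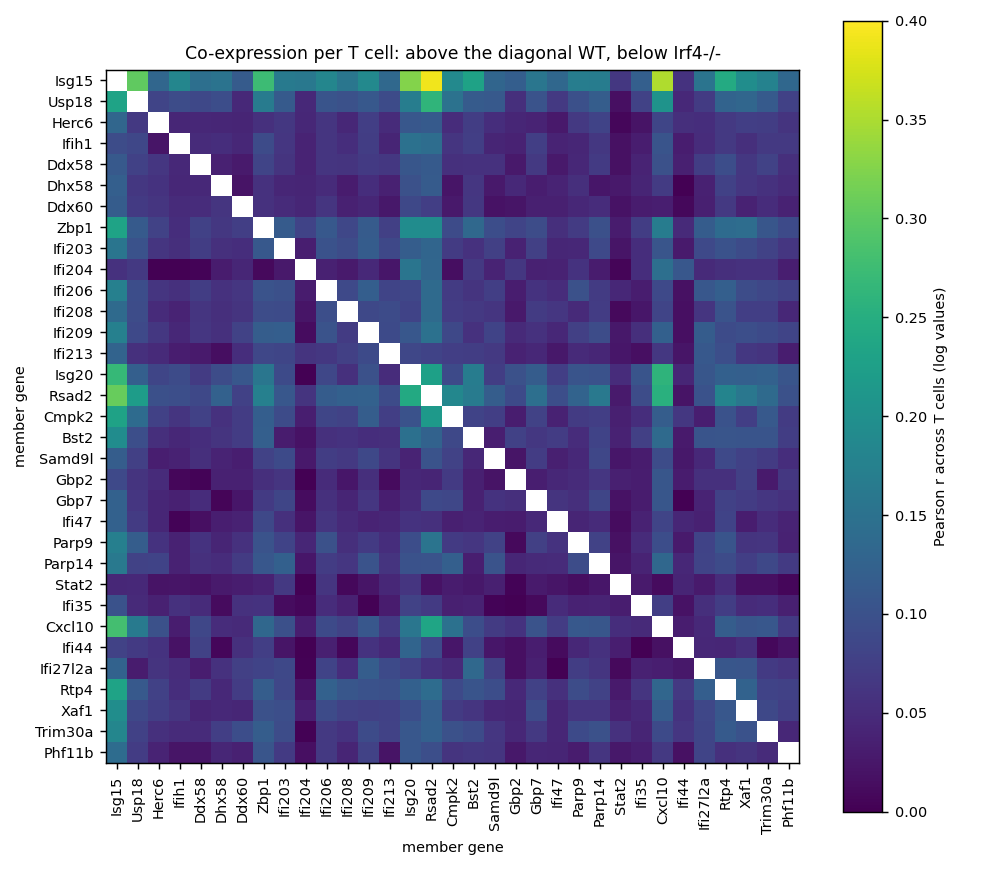
Pearson r between members across T cells thinned to 4000 UMIs is coloured from 0 to 0.4, the library labelled WT above the diagonal and that labelled Irf4-/- below. The Isg15, Rsad2, Isg20 and Cxcl10 rows and columns stand out, up to 0.39 for Isg15 with Rsad2, against medians of 0.061 and 0.067.

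Several of the most inducible members were lower in gamma-delta T-like cells of the library labelled Irf4-/-. Of 31 members counted, 1 was higher (Ifi27l2a) and 4 were lower (Isg15, Isg20, Rsad2 and Cxcl10) past 1.5-fold, beside 2.31% higher and 2.47% lower of 9096 genes. Ifi27l2a had 2421 and 1492 UMIs, or 341 and 187 CPM, a ratio of 0.86 (0.77 to 0.96). Isg15 had 242 and 421 UMIs, or 34.1 and 52.9 CPM, a ratio of -0.63 (-0.87 to -0.40). Isg20 had 35 and 98 UMIs (-1.32, interval -1.92 to -0.75) and Rsad2 32 and 90 (-1.33, interval -1.96 to -0.73). Cxcl10 had 19 and 85 UMIs in 7 and 15 cells (-1.996, interval -2.80 to -1.27), of which the 5 richest cells held 89.5% and 69.4%. The median over members was -0.05 and over all genes -0.03.

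Responding cells were set apart here too. The share with more than 1 Isg15 UMI was 5.15% (42 cells) and 5.31% (68 cells) at own depth. It was 2.76% (1.74 to 4.15%) and 3.89% (2.84 to 5.19%) at 4000 UMIs, where 19 and 150 shallower cells were left out. At 2000 UMIs it was 0.859% (0.346 to 1.76%) and 2.27% (1.53 to 3.25%), and the intervals overlapped at both depths. With any Isg15 UMI as the limit, the shares were 14.6% and 10.9% at own depth. They were 9.16% and 8.23% at 4000 UMIs and 5.03% and 6.19% at 2000, so the direction changed with limit and depth. Thinned to 4000 UMIs, responding cells (22 and 44) held 9 and 42 Rsad2 UMIs, 56.25% and 73.7% of all Rsad2 UMIs in the gamma-delta T-like cells. Without the responding cells Rsad2 was under 50 UMIs, so its ratio of -0.19 is not counted. That of Isg15, on which the cells were chosen, is not read. In those non-responding gamma-delta T-like cells (774 and 1212), Usp18 (27.7 and 10.96 CPM, 1.34), Zbp1 (63.8 and 40.9 CPM, 0.64) and Ifi27l2a (320 and 164 CPM, 0.97) were higher past 1.5-fold among 28 members counted without Isg15. Isg20 was the only one lower (-0.70, interval -1.54 to 0.10). Of all 8997 genes counted there, 2.31% were higher and 2.58% lower. Where clusters were built with all variable genes, 18 and 53 of the responding cells moved to a cluster led by interferon-stimulated genes. Then Isg15 had a ratio of 0.78 and Rsad2 0.26, and 4 members were higher and 0 lower, with no share of all genes given. That clustering did not leave out the member genes, so these cells were set apart partly on the members' own values. The ratios are therefore not read as a difference between the libraries.

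In B-like cells 12 of 28 members counted were higher in the library labelled Irf4-/- past 1.5-fold and 0 were lower. Over 7873 genes, 5.42% were higher and 4.47% lower. The median was 0.52 over members and 0.00067 over all genes, 26 members were above 0, and 18 intervals excluded 0. Ifi204 had 0 UMIs in both libraries, which allows up to 0.838 and 1.07 CPM.

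Gbp7, a guanylate-binding GTPase of cell-autonomous defence, differed most, with 204 and 48 UMIs or 57.0 and 17.1 CPM, a ratio of 1.74 (1.28 to 2.22). Rtp4 had 166 and 48 UMIs, or 46.4 and 17.1 CPM, a ratio of 1.44 (0.97 to 1.93). Ifi27l2a had 5960 and 1912 UMIs, or 1664 and 681 CPM, a ratio of 1.29 (1.21 to 1.36). In T cells the same Gbp7 and Rtp4 had ratios of 0.18 and 0.39. Whether the populations differ was not tested.

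All 3 members of the Isg15 system passed in pooled B-like cells, on few UMIs. Isg15 had 126 and 62 UMIs (0.67, interval 0.22 to 1.13), Usp18 43 and 17 (0.99, 0.15 to 1.89), and Herc6 62 and 30 (0.70, 0.04 to 1.38). In cluster 1 alone none of these 3 passed (Isg15 0.43, Herc6 0.41, and Usp18 under 50 UMIs). Under a stricter cell filter Isg15 was at 0.49 and Usp18 was under 50 UMIs, and with cells gated on transcripts Herc6 was at 0.24. Among sensors, Ddx60 had 40 and 14 UMIs (1.16, 0.25 to 2.16) and Dhx58 45 and 17 (1.05, 0.22 to 1.95), while Ddx58 had 75.7 and 75.6 CPM, with ratios of -0.28 in cluster 1 and 1.05 in cluster 15. Bst2 had 161 and 92.0 CPM (0.80, 0.59 to 1.02). Xaf1 had 71.2 and 42.4 CPM (0.75, 0.43 to 1.07), Parp14 132 and 85.9 CPM (0.61, 0.39 to 0.84) and Ifi203 602 and 398 CPM (0.60, 0.49 to 0.70). Samd9l, a growth and virus restriction factor, was even at 307 and 312 CPM, as was Ifi47 at 86.6 and 83.4 CPM. The higher members were a subset of the set.

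B-like cells also differed between the libraries in other respects. Their median depth was 4091 and 3008 UMIs. T cell markers summed to 122 and 285 CPM (9 of 10 detected in both, with Cd4 at 0), and erythroid markers to 31.6 and 745 CPM (6 and 5 of 7 detected). B markers summed to 17954 and 17683 CPM. The Ms4a1-led cluster 1 held 630 and 514 cells and the H2-Aa-led cluster 15 held 115 and 271. The part of these in the result was not tested. Within cluster 1 alone, 8 of 26 members were higher and 0 lower, with Gbp7 at 1.62 (1.11 to 2.17), Ifi27l2a at 1.21 (1.13 to 1.29) and Rtp4 at 1.31 (0.80 to 1.85). Within cluster 15 alone 5 of 15 counted members passed: Ifi27l2a at 1.09 (0.89 to 1.28), Ddx58 at 1.05, Bst2 at 0.94, Phf11b at 0.79 and Ifi213 at 0.59. Only Ifi27l2a and Bst2 of these were among the 12, and Ifi203 (0.55) and Parp14 (0.42) did not pass there. A stricter cell filter (492 and 571 cells) left 7, and thinning to 2000 UMIs left 8. The share of all genes past the limit is not given for these smaller sets, so their counts are not set against a background.

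Responding cells were few among B-like cells, 22 (2.95%, 1.86 to 4.44%) and 11 (1.40%, 0.70 to 2.49%) at own depth. Thinned to 2000 UMIs the shares were 1.08% (0.47 to 2.12%) and 0.79% (0.29 to 1.71%). The intervals overlapped at both depths. With any Isg15 UMI as the limit, the shares at 2000 UMIs were 5.95% (4.35 to 7.90%) and 3.43% (2.25 to 4.99%). Without the cells responding at own depth, 11 of 27 members counted without Isg15 were higher and 0 lower. Of 7814 genes, 5.41% were higher and 4.58% lower. Gbp7 was at 1.64, Rtp4 at 1.35 and Ifi27l2a at 1.297. In all B-like cells Cxcl10 had 1 and 0 UMIs and Rsad2 8 and 12. Both genes, the most concentrated in responding T cells, thus had too few UMIs here to be counted. B-like cells held 3580795 and 2805633 UMIs in all, against 66386249 and 80217015 in T cells. The low Rsad2 count therefore does not by itself show a lower level than in T cells. Isg20, which followed Cxcl10 and Rsad2 in T cells, had 201 UMIs over both libraries.

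Progenitor B-like cells (293 and 110 cells, led by the surrogate light chain gene Vpreb1) were few, at median depths of 4628 and 2595.5 UMIs. Of 18 members counted, 10 passed 1.5-fold upward in the library labelled Irf4-/- and 1 downward, beside 9.7% higher and 6.92% lower of 6112 genes. Gbp7 had 137 and 3 UMIs, a log2 ratio of 3.47 (1.89 to 5.76). Rtp4 had 88 and 0 UMIs, at least 7.11-fold higher against a limit of 3 counts in the library labelled WT. Bst2 had 182 and 22 UMIs (1.003, interval 0.36 to 1.71), Ifi206 had 77 and 7 (1.41, 0.30 to 2.78) and Parp9 had 86 and 9 (1.21, 0.22 to 2.39). The lower member was Ddx58 with 70 and 26 UMIs, whose interval of -1.28 to 0.09 included 0.

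The genes that carry the interferon signal were largely even in T cells. Of 22 signalling genes counted, 2 were higher, Irf5 (126 and 91 UMIs, 0.74) and Irf8 (20.3 and 12.1 CPM, 0.74), and 1 was lower, the interferon gamma receptor chain Ifngr2 (58 and 156 UMIs, -1.15). The receptor chains Ifnar1 (-0.01) and Ifnar2 (0.09) and the factor Irf9 (0.03) were near 0, and Irf7 was at 0.17. The member Stat2 was at 8.57 and 9.21 CPM (-0.10, interval -0.26 to 0.06). Of 11 genes of the sensing pathway counted, 0 passed in either direction. Of 56 further interferon-stimulated genes counted, 3 were higher (Iigp1 0.94, Phf11a 0.65 and Tdrd7 0.62) and 0 lower, with a median of 0.16. Of all 12107 genes counted in T cells, 5.58% were higher and 2.99% lower, so the 3 of 56 were near the background share.

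The same signalling list gave 3 of 21 higher and 0 lower in B-like cells: Irf7 (30.7 and 16.8 CPM, 0.87), Irf9 (108 and 63.8 CPM, 0.76) and Irf8 (600 and 391 CPM, 0.62). Ifnar2 was at 0.34 and Ifnar1 at -0.05. Of 44 further interferon-stimulated genes counted, 9 were higher and 1 lower, beside 5.42% higher and 4.47% lower of all 7873 genes. The highest were Lgals3bp (59 and 7 UMIs, 2.72) and Ifitm3 (70 and 9 UMIs, 2.61), the peptide transporter Tap1 was at 0.86, and Ms4a4b, which T cells express, was the lower one at -0.61. In gamma-delta T-like cells 1 of 20 signalling genes was higher (Irf8, 0.67), beside 2.31% higher and 2.47% lower of all 9096 genes. There the sensing kinase Ikbke was lower (19.1 and 30.4 CPM, -0.67), Ifng was higher (14.6 and 8.29 CPM, 0.82), and Phf11a was the only higher one of 54 further genes (0.81).

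Of the related families, 3 of 6 Ifit genes were lower and 1 higher in T cells past 1.5-fold. For the Oas family, 1 of 5 genes counted was higher and 1 lower. The shares over all 12107 genes counted in T cells were 5.58% higher and 2.99% lower. The Ifit median of -0.71 stood against the 0.15 of the members described here.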

How the data were processed

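The authors deposited a matrix of raw UMI counts for each library. Cell Ranger 6.1.1 produced them, per the file headers, and mm10 is the build named in the submitters' processing notes, with no annotation release stated there. Libraries used a droplet 3' version 3 kit, per the labels' protocols. Barcodes with at least 500 genes, 1000 UMIs and under 10% mitochondrial UMIs were kept. Cells were clustered with scanpy 1.11.5 (2000 variable genes without interferon-stimulated genes, 30 components, 15 neighbours, Leiden resolution 1) and clusters were named from markers. No doublet caller was run, so doublets may remain. Counts were summed per library and population and scaled to CPM, and edgeR 4.0.16 served only for an alternative scaling. Ratios had exact conditional binomial intervals, shares exact Clopper-Pearson intervals, and a level of 0 a limit of 3 counts; all cover counting error only. The interval script was tested on simulated data.

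The members, gene lists and limits were chosen with earlier results of these data known. Each member past 1.5-fold with an interval without 0 is named with its values, as are listed pathway genes past that limit, and Irf7, Irf9, Ifnar1 and Ifnar2 always (a further listed gene is not reported here); others are given by range or as examples chosen after their values were seen. The Ube2l6 interval in B-like cells included 0 (0.68, -0.09 to 1.49), as did that of Isg20 in non-responding gamma-delta T-like cells.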

Additional observations from a re-analysis of the deposited data

Results flagged for a closer look

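Ratios (log2, the library labelled Irf4-/- over that labelled WT) of some members pointed in opposite directions in 2 populations, with both counting intervals on opposite sides of 0. With 1 library per genotype, none of these differences was tested. Isg15 was at -0.63 in gamma-delta T-like cells against 0.17 in T cells and 0.67 in B-like cells. With the T cell clusters weighted equally, Isg15 in T cells was at -0.16, the same direction as in gamma-delta T-like cells. Herc6 was at -0.34 in gamma-delta T-like cells, 0.18 in T cells and 0.70 in B-like cells. Ifi209 was at 0.14 in B-like cells against -0.22 in T cells, with -0.29 for gamma-delta T-like cells. Ifi213 was at 0.45 in B-like cells against -0.15 and -0.33. Isg20 was at 0.55 in B-like cells against -0.39 and -1.32. Parp14 was at 0.61 in B-like cells but at -0.32 in gamma-delta T-like cells.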

How the results depend on the processing

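Leaving out a library was not possible with 1 per genotype, and no paired fit was made. No paired analysis was possible because each genotype has a single library. The 23 single-gene results past 1.5-fold had 222 values under the alternatives. Of these values, 201 stayed within the counting interval, 18 moved outside it without reversing and 3 reversed. The cause was not tested beyond what each alternative changes. The reversals were Isg15 in gamma-delta T-like cells (0.78 with clusters from all variable genes), Rsad2 there (0.26 with those clusters) and Cxcl10 in non-responding T cells (-0.90 with the split on other genes). The Isg15 and Rsad2 values came from clusters that did not leave out the member genes, so they are not read as a change of direction. Members under 1.5-fold were not in this count, and some of them also changed sign. With clusters weighted equally, Cxcl10 in T cells went from 0.10 to -1.50 and Isg15 in T cells from 0.17 to -0.16. The T cell count of 3, all higher, became 8 with a limit of 0.32 on the log2 scale, with Isg20 (-0.39) and Ifi204 (-0.41) lower. It became 1 at 2-fold and 5 with clusters weighted equally (3 higher, and Ifi204 and Cxcl10 lower), where the median fell to 0.064. The gamma-delta T-like count of 5 became 9 and 3 with these limits and 2 when thinned to 2000 UMIs. The B-like count of 12 became 19 and 5 with these limits, 7 under the stricter filter and 5 in cluster 15 alone. No share of all genes past the limit is given beside these alternative counts. The log2 ratio of the shares of responding T cells, 0.52, became 0.036 at 2000 UMIs, and with any Isg15 UMI as the limit it was 0.35 at 4000 and 0.42 at 2000 UMIs. Median r became 0.038 and 0.043 at 2000 UMIs and 0.11 and 0.10 without thinning. Scaling by TMM or median of ratios moved T cell ratios by -0.025 and -0.024. The single-cluster, equal-weight B-like and no-responding-cell alternatives and the any-UMI limit were chosen after seeing the data.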
